A study of Mus musculus with 3 samples.

Results

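The renin-angiotensin system genes were examined in cap mesenchyme, the cells of the embryonic mouse kidney from which nephrons arise. The members were Agt, Ren1, Ace, Agtr1a, Agtr1b, Agtr2, Atp6ap2, Mas1 and Enpep, taken as all array probe sets annotated to exactly 1 of these gene symbols. This gave 11 probe sets for 8 of the 9 genes, out of 18193 named genes on the array; Ren1, which encodes renin, is not analysed here. Expression was measured on 3 arrays that form a single group, called pools 1 to 3, each made from about 5 to 10 kidneys of E15.5 embryos (Theiler stage 23) on a CD-1 strain background. All embryos came from mice with the transgene Tg(Six2-EGFP/cre)1Amc, a reporter that places EGFP and cre under the control of Six2, and the cells were separated by fluorescence-activated sorting after trypsin treatment. The embryos' sex was recorded as unknown, and the series has no control group and no second cell population. Each probe set was therefore set against the background level of its own array, and differences between pools are described without a test.

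The renin-angiotensin system is a peptide cascade that controls blood pressure and salt balance. The secreted precursor angiotensinogen (Agt) is cut by renin to angiotensin I, which angiotensin-converting enzyme (Ace) shortens to angiotensin II, and aminopeptidase A (Enpep) then removes the first residue to give angiotensin III. Angiotensin II acts through G-protein-coupled receptors of type 1 (Agtr1a and Agtr1b in mice) and type 2 (Agtr2), angiotensin-(1-7) acts through the Mas receptor (Mas1), and Atp6ap2 encodes the (pro)renin receptor, which is also an accessory subunit of the proton pump V-ATPase. In mice and humans, loss of components of the system disturbs the development of the renal medulla, vessels or tubules.

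The values are linear array intensities, scaled by the authors to a common mean on every array. The level of one gene cannot be ranked against another from them, since probe sets differ in affinity. Background was the 95th percentile of 150 probe sets for olfactory, vomeronasal and taste receptors, keratin-associated proteins and defensins, and its signal was 197, 186 and 201 on the arrays of pools 1, 2 and 3. A probe set was called above background at an adjusted p under 0.05 in a one-sided limma test, adjusted by Benjamini-Hochberg over all 45037 probe sets. The 10 measured cap mesenchyme markers, Six2 of the sorting reporter among them, were all above background, with a median log2 difference of 5.43. So were 9 of 11 stromal markers, with a median of 1.69 but with Foxd1 at 5.17 and Aldh1a2 at 5.78, so passing background alone does not single out cap mesenchyme. The 3′ control probe set exceeded the 5′ one by 16.9 to 33.1 times for Gapdh and by 3.54 to 9.72 times for Actb, after 2 rounds of RNA amplification. A low signal shows no absence of a transcript, and in such sorted samples fewer cells of a type and less RNA per cell cannot be told apart. The labels do not say whether the pools came from separate litters, so the p-values cover only these 3 arrays, whose number limits the precision. In limma, the spread of each probe set was drawn towards that of probe sets of like intensity. The background level of each array was taken as fixed, so its own uncertainty enters no p-value or confidence interval.

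Of the 8 measured members, 2 were above background, Atp6ap2 and Enpep, or 25% against 54.4% of all named genes. The precursor gene Agt, the converting enzyme gene Ace and the 4 receptor genes Agtr1a, Agtr1b, Agtr2 and Mas1 did not pass. The median difference from background over the 8 members was -0.49 on the log2(signal + 16) scale, against 1.20 over all named genes, each gene represented by its brightest probe set. By probe set, 4 of 11 were above background, against 41.5% of all probe sets. A gene with more probe sets has more chances to be called: 6 of the 8 members had a single probe set, and 37.1% of all named genes with a single probe set were above background. With the median of the background probe sets in place of their 95th percentile, 5 of 8 members passed, the added genes being Ace, Agtr1a and Agtr2, and 76.3% of all named genes passed under the same setting.

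**Figure D1:**
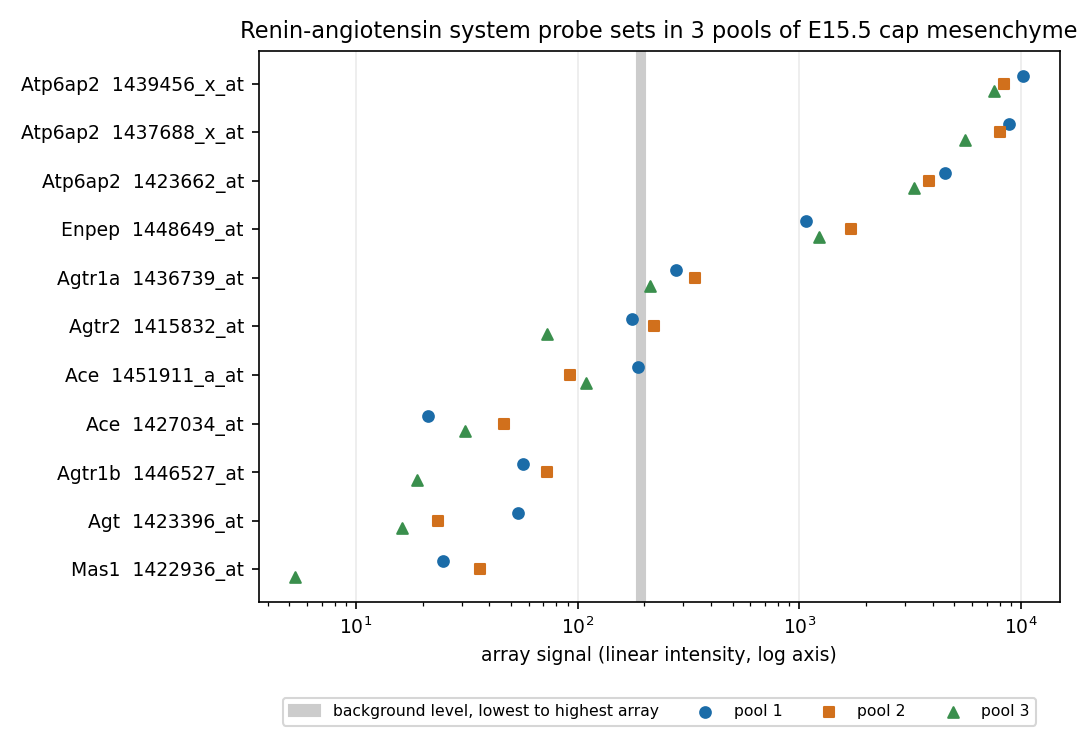
Array signal (linear intensity on a log axis) of the 11 probe sets of 8 renin-angiotensin system genes, 1 point per pool, with the range of the background level over the 3 arrays as a grey band. The 3 probe sets of Atp6ap2 and that of Enpep lie right of the band in every pool, Agtr1a lies just right of it, and the other probe sets lie left of it in at least 2 of the 3 pools.

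Atp6ap2, the (pro)renin receptor gene, was above background on all 3 of its probe sets. The brightest (1439456_x_at) had signals of 10247, 8388 and 7577 in pools 1, 2 and 3. The other probe sets had signals of 8836, 8019 and 5564 (1437688_x_at) and of 4559, 3854 and 3298 (1423662_at) in the same pools. On each of them pool 1 was highest and pool 3 lowest, and no pool came near the background level. The brightest probe set averaged 8737 ± 1369 (SD, n = 3), which placed it 5.37 ± 0.14 above background on the log2 scale (standard error of limma, 95% confidence interval 5.04 to 5.69, adjusted p = 1.8e-08). The highest pool exceeded the lowest by 1.35-fold, close to the median of 1.36-fold over the 9892 genes above background. Probe sets with the suffix _x_at can match several transcripts, and 1423662_at, which lacks that suffix, was 4.21 above background (95% confidence interval 3.88 to 4.54, adjusted p = 5.6e-08, limma).

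The start of Atp6ap2 is preceded by DNA rich in CpG, as is common at broadly active genes. The sequences shown here are the 250 bases before the RefSeq start of the 2 genes above background and of 2 genes not above it, on the GRCm38.p6 build, 5′ to 3′ on the gene's strand. Capitals mark the letters CCAAT on either strand (so also ATTGG) anywhere in the window, and TATAA on either strand (so also TTATA) within 50 bases of the start; no match of one overlapped a match of the other. The Atp6ap2 window (chrX:12587509-12587758, + strand) holds 20 CpG dinucleotides and 3 matches to CCAAT, at -108, -70 and -15 from the start, and no TATAA near the start. The Enpep window (chr3:129332750-129332999, - strand) holds 6 CpG and 1 CCAAT match, at -77, and none for TATAA near the start. A TTATA in it begins just outside the 50 bases and is not marked. The windows of Agt (chr8:124569707-124569956, - strand) and Agtr2 (chrX:21484374-21484623, + strand) hold 0 and 3 CpG, with TATAA at -30 in Agt and at -26 in Agtr2, and a CCAAT match at -156 in Agtr2 and none in Agt.
Atp6ap2: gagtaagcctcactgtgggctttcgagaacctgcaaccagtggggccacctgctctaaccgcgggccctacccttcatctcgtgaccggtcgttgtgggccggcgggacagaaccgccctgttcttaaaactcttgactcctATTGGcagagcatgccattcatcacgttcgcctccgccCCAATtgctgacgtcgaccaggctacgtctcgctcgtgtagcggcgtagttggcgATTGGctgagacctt
Enpep: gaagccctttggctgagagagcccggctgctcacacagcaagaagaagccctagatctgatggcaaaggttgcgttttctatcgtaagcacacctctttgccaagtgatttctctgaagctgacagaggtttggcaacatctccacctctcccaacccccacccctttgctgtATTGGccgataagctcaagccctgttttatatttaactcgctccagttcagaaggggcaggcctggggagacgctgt
Agt: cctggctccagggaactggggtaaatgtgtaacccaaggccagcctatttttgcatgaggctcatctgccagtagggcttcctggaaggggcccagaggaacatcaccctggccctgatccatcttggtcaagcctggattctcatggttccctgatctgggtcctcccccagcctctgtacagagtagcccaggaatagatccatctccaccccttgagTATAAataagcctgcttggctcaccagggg
Agtr2: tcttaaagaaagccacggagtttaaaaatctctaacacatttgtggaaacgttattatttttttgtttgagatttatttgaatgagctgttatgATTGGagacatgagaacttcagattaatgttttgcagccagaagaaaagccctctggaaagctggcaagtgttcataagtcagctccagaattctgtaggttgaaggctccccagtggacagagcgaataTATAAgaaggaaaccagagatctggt

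Promoter windows were in the RefSeq table for 7 of the 8 measured members. Ace has 2 windows: the first holds 19 CpG and TATAA at -30 and -29 in overlapping letters of both strands, and the second, which starts inside the gene, holds 1 CpG and no TATAA near its start. The Agtr1b window holds 5 CpG and TATAA at -31, and the Mas1 window 2 CpG and no TATAA near its start. TATAA near the start was thus found in Agt, Ace, Agtr1b and Agtr2, which were not above background, and not in Mas1, Atp6ap2 or Enpep. Over all named genes, it was found in 2.82% of windows of genes above background and in 9.08% of windows of genes not above it, and in 6.36% of all 32851 windows in the table. The median number of CpG was 17 in windows of genes above background and 5 in windows of genes not above it. CCAAT was found in Atp6ap2 and Enpep and also in Agtr2, Agtr1b (-156), Mas1 (-93) and the second Ace window (-25), which belong to genes not above background. Over all named genes it was found in 35.4% and 33.8% of these windows, and in 33.8% of all windows. A match describes letters only, and no binding was measured.

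**Figure D2:**
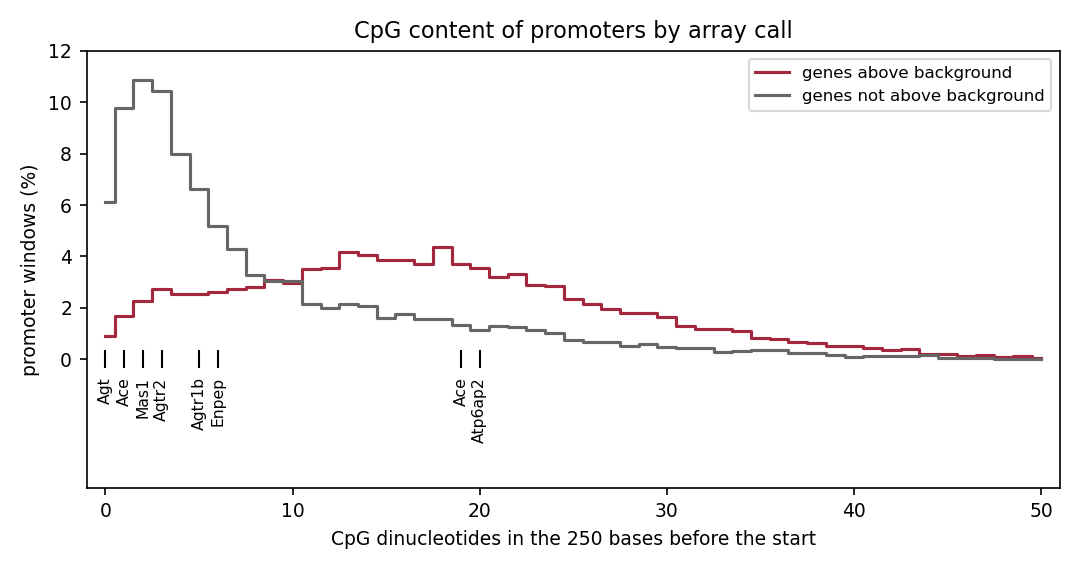
Distribution of the number of CpG dinucleotides in the 250 bases before the start (x axis, drawn up to 50) as a share of promoter windows (y axis, %), for named genes above background and not above it. Ticks mark the members, with both windows of Ace: Atp6ap2 at 20 and the first window of Ace at 19 lie near the median of 17 of genes above background, and the other windows have 6 or fewer.

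The proton pump to which the Atp6ap2 product belongs was represented by most of its subunit genes. Of 22 measured V-ATPase subunit genes, 15 (68.2%) were above background, against 54.4% of all named genes, and their median difference from background was 3.40 on the log2 scale, against 1.20. The other accessory subunit gene, Atp6ap1, had signals of 10002, 10891 and 10366 in pools 1, 2 and 3. Atp6v1g1, a stalk subunit gene, averaged 29838 ± 1845, Atp6v1e1, another stalk subunit gene, 12385 ± 668, and Atp6v0e, a small membrane subunit gene, 9782 ± 103 (SD, n = 3 each). Adjusted p in limma was 1.6e-08 for each of these 4 genes. The 3 pools lay close together for Atp6v0e, whose highest pool exceeded the lowest by 1.02-fold.

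The subunit genes that did not pass were mostly alternative isoforms. They were Atp6v0a1, Atp6v0a4, Atp6v0d2, Atp6v1b1, Atp6v1c2, Atp6v1e2 and Atp6v1g2. Atp6v1b1 and Atp6v0a4, the isoform genes known from acid-secreting intercalated cells of the collecting duct, averaged 37.6 ± 29.3 and 87.6 ± 80.5 (SD, n = 3). Isoforms of the same subunits, named after their values were seen, were above background: Atp6v1b2 at 6090.1 ± 247 and Atp6v0a2 at 2167 ± 492. Each of the subunits A to H of the cytoplasmic V1 part had an isoform gene with at least 1 probe set above background (Atp6v1a, Atp6v1b2, Atp6v1c1, Atp6v1d, Atp6v1e1, Atp6v1f, Atp6v1g1 and Atp6v1h). A gene was also judged by its median probe set, ranked by adjusted p. With an even number of probe sets, the higher of the middle adjusted p values was taken, which is stricter than a midpoint. By the median probe set, 12 of the 22 genes passed, against 39% of all named genes, and Atp6v1b2, Atp6v1e1 and Atp6v1h lost their calls. For Atp6v1b2 and Atp6v1e1, with 2 of 4 probe sets called, this loss was fixed in advance by the rule. Atp6ap1 and Atp6v0b were each measured only by probe sets that can match several transcripts.

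**Figure D3:**
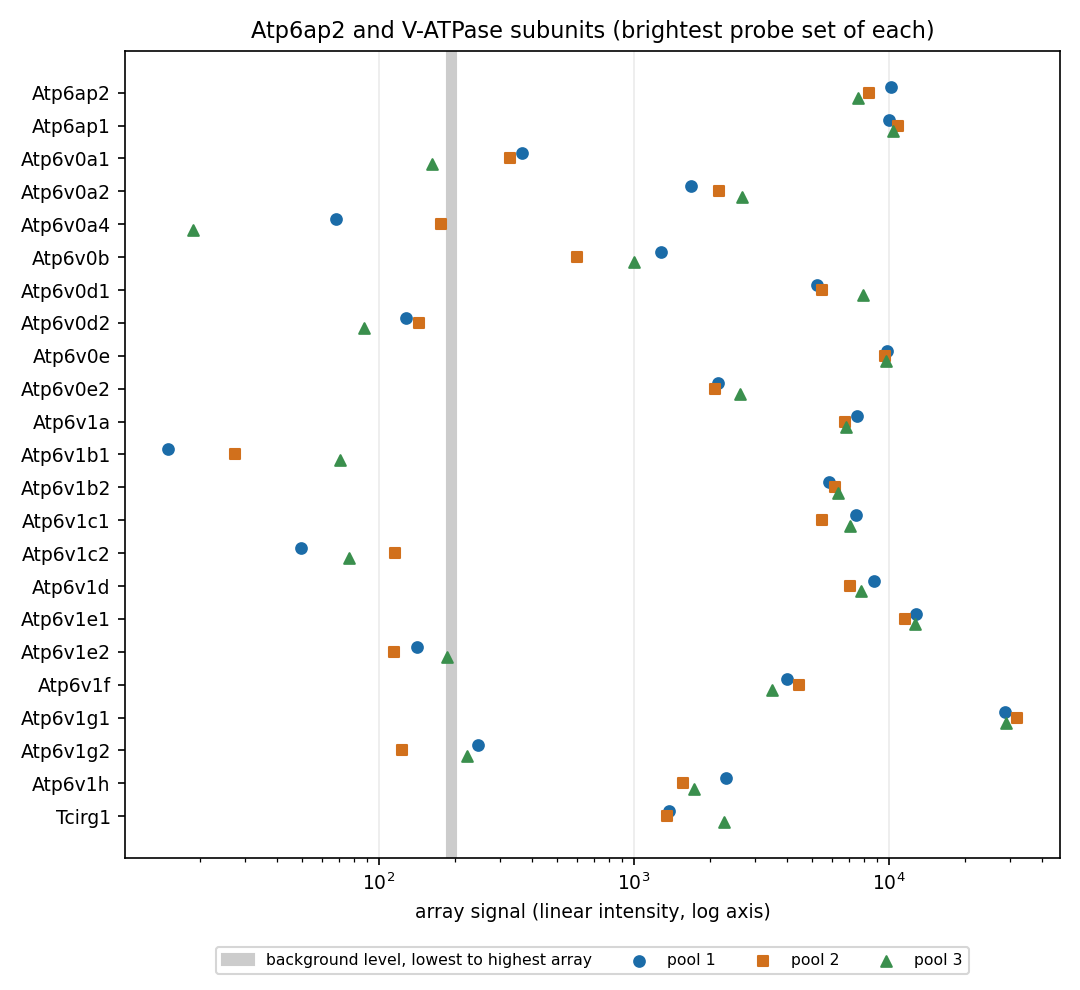
Array signal (linear intensity on a log axis) of the brightest probe set of Atp6ap2 and of 22 V-ATPase subunit genes, 1 point per pool, with the background level of the 3 arrays as a grey band. Atp6ap2 and the 15 subunit genes above background lie right of the band in every pool, while Atp6v1b1, Atp6v1c2, Atp6v0d2, Atp6v1e2 and Atp6v0a4 do not exceed it in any pool.

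Enpep, which encodes the membrane peptidase that turns angiotensin II into angiotensin III, was the other member above background. Its single probe set (1448649_at) had signals of 1067, 1704 and 1225 in pools 1, 2 and 3, or 5.43, 9.18 and 6.10 times the background level of the same array. Pool 2 was highest, and every pool was far above the level. The mean of 1332 ± 331 (SD, n = 3) was 2.65 ± 0.18 above background on the log2 scale (standard error, 95% confidence interval 2.22 to 3.08, adjusted p = 3.8e-06, limma). Enpep stayed above background under each of the 12 alternative settings, as did Atp6ap2. Its highest pool exceeded its lowest by 1.60-fold.

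Enpep is known from the brush border of proximal tubules, from podocytes and from mural cells of vessels, and markers of these cells gave the following values. At the main setting, 54.4% of all named genes passed. Of 9 measured proximal tubule markers, 0 passed in limma, also 0 at an unadjusted p under 0.05, and their summed signal lay between 815 and 1069.95 in the 3 pools. Against the median of the background probe sets 6 of the 9 passed, with 76.3% of all named genes. The gluconeogenic Fbp1 averaged 45.0 ± 36.9 and the transporter gene Slc22a6 52.1 ± 48.0 (SD, n = 3 each). Of 5 podocyte markers, 2 passed, the phosphatase gene Ptpro (1322 ± 165) and Podxl (695 ± 205), with a summed signal of 2126 to 2689, while the slit diaphragm gene Nphs1 (110.3 ± 8.68) did not. Of 10 mural and renin-lineage markers, 6 (60%) passed, near the share of all named genes, with a summed signal of 6175 to 7511. Among them were Notch3 (2874 ± 533), Des (959 ± 175) and Pdgfrb (804 ± 13.7). The contractile genes Tagln (27.4 ± 7.29), Cnn1 (9.36 ± 6.27) and Myh11 (39.9 ± 40.7) did not pass, while Acta2 did (943 ± 190), on 1 of its 3 probe sets. Myh11 and Acta2 were named after their values were seen. By the median probe set, 0 of 5 podocyte and 2 of 10 mural markers passed, against 39% of all named genes. Ptpro, Podxl, Acta2, Notch3, Des and Pdgfrb all lost their calls. Apart from Acta2, each of these has 2 probe sets, of which 1 was called. The rule takes the higher adjusted p in such genes, so their loss was fixed in advance. Notch3 and Acta2 were each called only on a probe set ending in _s_at, which can match several transcripts. Without probe sets ending in _s_at or _x_at, both lost their calls. Enpep was highest in pool 2 and lowest in pool 1, as were 17.5% of all named genes, the summed signals of 4 of the 14 other lists (podocyte, endothelium, receptor partners and renin regulators) and the 3′ to 5′ ratio of Actb. The part of these cells in the Enpep signal was not tested.

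Of 14 measured genes for other peptidases that act on angiotensins, 9 (64.3%) passed, near the 54.4% of all named genes. Ctsd, a lysosomal aspartic protease gene, averaged 3740.0 ± 766, the endothelin-converting enzyme gene Ece1 2320.1 ± 87.0, the prolyl oligopeptidase gene Prep 3433 ± 698, and Dpp3, whose product degrades angiotensin peptides, 3411 ± 1024 (SD, n = 3 each). Adjusted p in limma lay between 6.6e-08 for Ctsd and 1.7e-07 for Dpp3. Genes of enzymes that can form angiotensin-(1-7), named after their values were seen, also passed: besides Prep these were Mme (neprilysin), Thop1 and Prcp. Mme had signals of 480, 977 and 855 in pools 1, 2 and 3, with pool 1 lowest and all pools above the background level (adjusted p = 0.00017, limma). When a gene was judged by its median probe set, 4 of the 14 genes passed, against 39% of all named genes. Mme, Dpp3, Thop1, Prcp and Ece1, each read by some probe sets that passed and some that did not, lost their calls. For Mme, Dpp3 and Thop1, with 1 of 2 probe sets called, the rule takes the higher adjusted p, so the loss was fixed in advance. The same holds for Prcp, with 2 of 4 called.

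Of the 14 measured peptidase genes, 5 were not above background, Anpep, Ctsg, Cma1 and Erap1 among them. Anpep, the aminopeptidase gene whose product acts on angiotensin III, averaged 11.6 ± 1.95 (SD, n = 3). The cathepsin G gene Ctsg averaged 38.1 ± 29.9, and the chymase gene Cma1, named after its values were seen, 62.4 ± 25.5 (n = 3 each). Erap1, an aminopeptidase gene, exceeded the background level in all 3 pools (322, 208 and 317) but did not pass (adjusted p = 0.12, limma).

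Agt, the gene of the precursor of all angiotensins, was below the background level in every pool. Its probe set (1423396_at) had signals of 53.6, 23.5 and 16.2 in pools 1, 2 and 3, with pool 1 highest. The mean of 31.1 ± 19.8 (SD, n = 3) gave a log2 difference from the level of -2.24 (95% confidence interval -3.03 to -1.45). The highest signal was 0.272 times the background level of its array. The gene stayed without a call under the 11 alternatives in which it was measured.

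Ace, the angiotensin-converting enzyme gene, was not above background on either of its 2 probe sets. The brighter (1451911_a_at) had signals of 188, 92.7 and 109 in pools 1, 2 and 3, and the other (1427034_at) of 21.1, 46.4 and 31.0. Pool 1 was highest on the brighter probe set and lowest on the other, and neither reached the level in any pool. The brighter probe set averaged 130 ± 50.9 (SD, n = 3), a log2 difference of -0.58 (95% confidence interval -1.41 to 0.25). Against the median of the background probe sets it passed (log2 difference 1.51, adjusted p = 0.0034, limma).

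None of the 4 receptor genes passed, and Agtr1a came nearest to the threshold. Agtr1a, a gene of the type 1 receptor, had signals of 278, 339 and 212 in pools 1, 2 and 3 (1436739_at). These exceeded the background level of the same arrays in all 3 pools, by 1.41, 1.82 and 1.05 times. The mean of 276 ± 63.5 (SD, n = 3) was 0.45 ± 0.27 above the level on the log2 scale (standard error, 95% confidence interval -0.19 to 1.09), and the gene did not pass (adjusted p = 0.16, limma). Of all named genes, 57.1% exceeded the level in 3 of 3 pools, and 495 of those, Agtr1a among them, were not called. Over the 12 alternatives its adjusted p ranged from 4.4e-05 with the median of the background probe sets to 1 with their 99th percentile, where its difference was -0.68.

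Agtr1b, the gene of the other type 1 receptor of mice, had signals of 56.9, 72.9 and 18.8 in pools 1, 2 and 3 (1446527_at). All were below the background level, and the mean of 49.6 ± 27.8 (SD, n = 3) gave a log2 difference of -1.79 (95% confidence interval -2.72 to -0.86). Agtr1a and Agtr1b are close paralogs, and how far each probe set reads the other transcript was not tested.

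Agtr2, the gene of the type 2 receptor, which is known for its expression in fetal mesenchyme, had signals of 176, 221 and 72.7 in pools 1, 2 and 3 (1415832_at). Only pool 2 exceeded its background level, by 1.19 times, and pool 3 was at 0.362 times the level. The mean of 157 ± 76.0 (SD, n = 3) gave a log2 difference of -0.40 (95% confidence interval -1.34 to 0.54). Without pool 3 the difference was 0.043 and the gene still did not pass (adjusted p = 0.91, limma). Mas1, the receptor gene for angiotensin-(1-7), had signals of 24.7, 36.2 and 5.30 (1422936_at), all far below the level (log2 difference -2.56, 95% confidence interval -3.36 to -1.77).

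The 4 receptor genes shared the same highest and lowest pool. Agtr1a, Agtr1b, Agtr2 and Mas1 were each highest in pool 2 and lowest in pool 3, a pattern found in 14.1% of all named genes and in 17.8% of those not above background. None of these 4 genes was above background, so this describes weak signals. The 3′ to 5′ ratio of Gapdh had the same order (20.5, 33.1 and 16.9 in pools 1, 2 and 3), which that of Actb did not (3.54, 9.72 and 9.08), as did the summed signal of the cap mesenchyme markers (134502, 137729 and 120315). The part of RNA quality in the pattern was not tested. The pattern was also that of 6 of 11 stromal markers, namely Pdgfra, Col1a1, Col3a1, Dcn, Lum and Ntn1, of which the collagen gene Col3a1 read 6121, 10966 and 4506 in pools 1, 2 and 3. Of the 11 stromal markers, 9 were above background, against 54.4% of all named genes. The summed signal of the 11 lay between 27844 and 35747, highest in pool 1 and lowest in pool 3. Against the 99th percentile of background 5 of the 11 passed, near the 46.1% of all named genes. Pdgfra, Col1a1, Dcn and Lum, which share the pool pattern, lost their calls there. Foxd1, the gene that defines cortical stroma, averaged 7565 ± 322 (SD, n = 3) and did not follow the pattern, nor did Aldh1a2 (11845 ± 3526) or Meis1 (2986 ± 207). The part of stromal cells in the receptor signals was not tested. No member above background had pools that differed by at least 2-fold, against 7.36% of all genes above background.

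**Figure D4:**
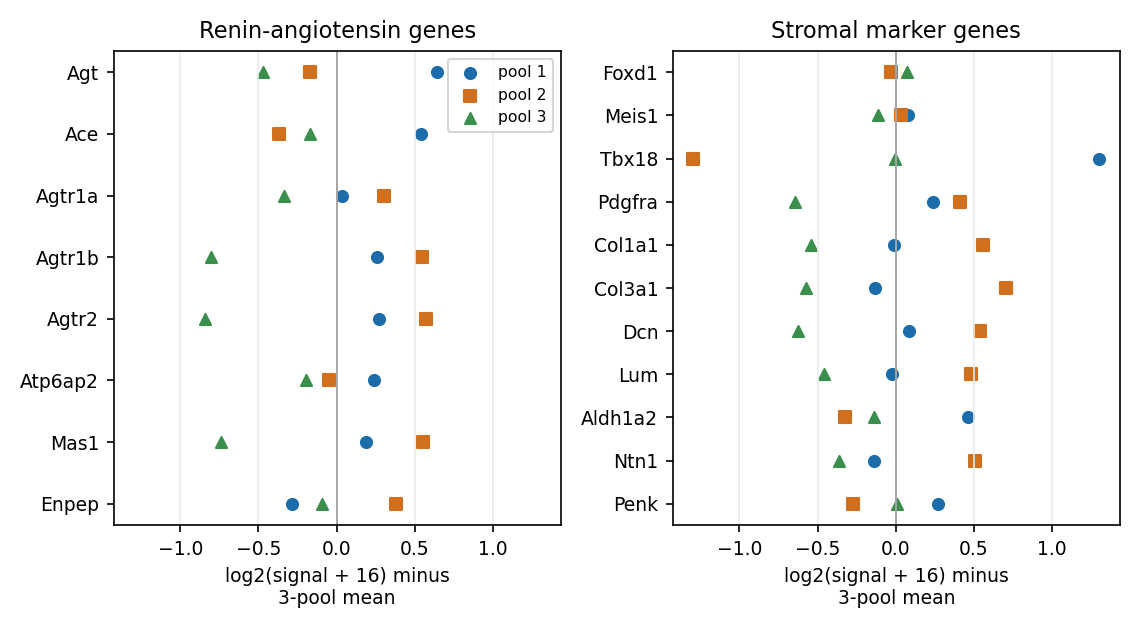
Deviation of log2(signal + 16) in each pool from the gene's own 3-pool mean (x axis) for 8 renin-angiotensin system genes (left) and 11 stromal marker genes (right), brightest probe set of each. In Agtr1a, Agtr1b, Agtr2 and Mas1, and in Pdgfra, Col1a1, Col3a1, Dcn, Lum and Ntn1, pool 2 lies farthest right and pool 3 farthest left.

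Genes for proteins that bind angiotensin receptors or carry their signal were nearly all above background. Of 15 measured genes, 14 (93.3%) passed, against 54.4% of all named genes. Some have many probe sets, such as Gnaq and Gna13 with 7 each, and so more chances to be called. Against the 99th percentile of background 12 of the 15 passed, with 46.1% of all named genes, and Plcb1 and Arhgef1 lost their calls. Arrb2 and Mtus1 lost theirs without probe sets ending in _s_at or _x_at. The G-protein alpha subunit genes Gna13, Gnaq and Gna11 averaged 15996 ± 870, 7882 ± 560.2 and 8862 ± 1185, and Rgs2, the gene of a regulator that dampens Gq signalling, 9141 ± 832 (SD, n = 3 each, adjusted p in limma between 1.6e-08 and 1.7e-08). Agtrap, named after its values were seen, encodes a protein that binds the type 1 receptor and favours its internalisation, and it read 669, 613 and 744 in pools 1, 2 and 3, all well above the background level (adjusted p = 3.3e-05, limma). Zbtb16, a partner gene of the type 2 receptor, was the gene that did not pass, at 104 ± 28.2 (n = 3). By the median probe set, 8 of the 15 genes passed, against 39% of all named genes. Agtrap was among those that did not, which was fixed in advance by the rule (1 of its 2 probe sets was called).

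Regulators known from the control of the renin gene were above background in 12 of 18 cases (66.7%), against 54.4% of all named genes. Rbpj, the effector of Notch signalling that keeps renin cells in their identity, averaged 15915 ± 2084, the coactivator gene Crebbp 14729 ± 1433, the cyclic AMP response factor gene Creb1 7480.0 ± 555, and Hoxd10 21430.4 ± 3624 (SD, n = 3 each, adjusted p in limma 1.6e-08 for each). All of these act widely outside renin cells. Gja5, the connexin gene of mature renin cells, averaged 5.57 ± 2.09, and Nr1h3, a nuclear receptor gene, 73.6 ± 35.5, and neither passed. Nfia, named after its values were seen, read 1009, 935 and 183 in pools 1, 2 and 3 and lost its call without pool 1 (adjusted p = 0.056) and without pool 2 (adjusted p = 0.19, limma), as did Adcy5. By the median probe set, 6 of the 18 genes passed, against 39% of all named genes. Creb1 and Nfia were among those that lost their calls. For Creb1, with 3 of 6 probe sets called, the rule takes the higher middle adjusted p, so the loss was fixed in advance.

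**Figure D5:**
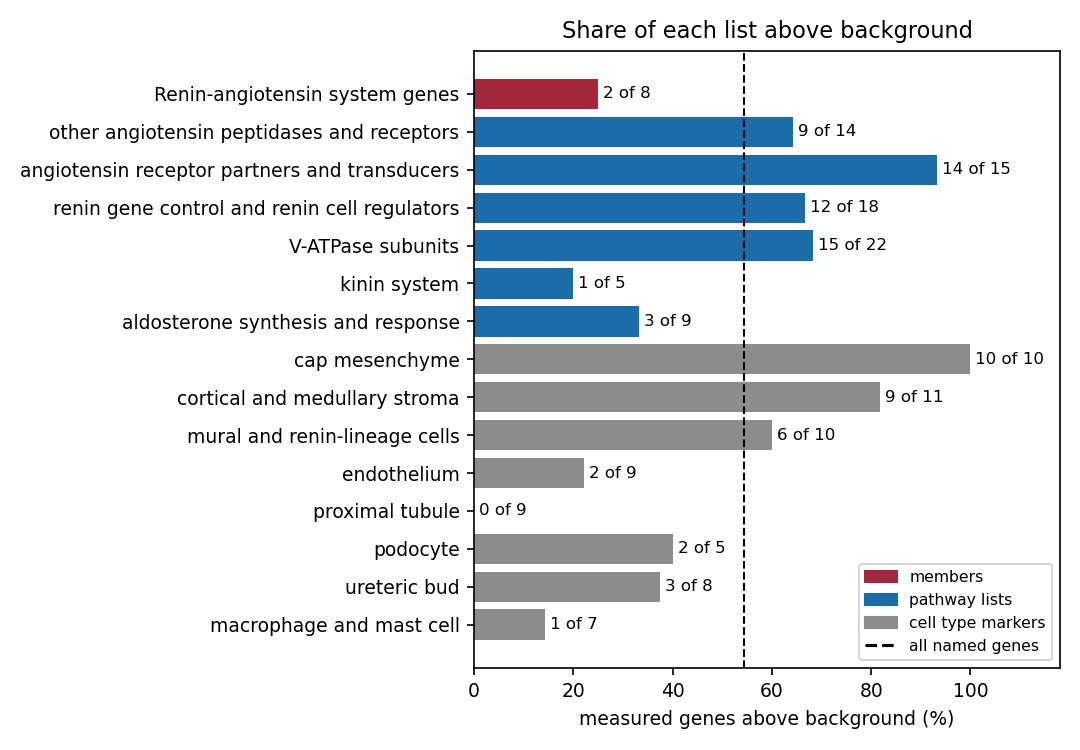
Share of measured genes above background (x axis, %) in the renin-angiotensin system genes, 6 pathway lists and 8 lists of cell type markers, with the number above background of the number measured beside each bar and the share of all named genes (54.4%) as a dashed line. The members stand at 2 of 8, receptor partners and transducers at 14 of 15 and proximal tubule markers at 0 of 9.

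Markers of vessels, ureteric bud and blood-derived cells gave few calls at the 95th percentile of background, at which 54.4% of all named genes passed. Of 9 markers of endothelium, in which Ace is typically found, 2 passed, namely Egfl7 (591 ± 45.9) and Eng (424 ± 66.5), while Tie1 (3.82 ± 1.14) and Tek (32.4 ± 26.3) did not (SD, n = 3 each). Their summed signal lay between 1458 and 1643. Of 8 ureteric bud markers, 3 passed, Wnt7b (449 ± 115), Wnt11 (445 ± 159) and Krt8 (351 ± 86.7), with Gata3 (4.66 ± 2.59) and Cdh1 (55.6 ± 23.9) not above background. Of 7 macrophage and mast cell markers, 1 passed, the receptor gene Kit (410.3 ± 110), with C1qa (9.82 ± 1.42) and C1qc (4.96 ± 0.712) not above it. Against the 99th percentile of background, 0 endothelial, 0 ureteric bud and 0 macrophage and mast cell markers passed in limma (1, 0 and 0 without the adjustment), and 46.1% of all named genes did. Against its median, 6 of 9, 4 of 8 and 4 of 7 passed, with 76.3% of all named genes.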

How the data were processed

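Intensity signals for 45101 probe sets on 3 arrays were deposited as linear values. GCOS, the array software named in the submitters' processing notes, produced them; its version is not given in the sources used here. The 2% trimmed mean was 1500 on each array, so each had been scaled to that target. The platform annotation named the probe sets: 34945 had a single symbol, 932 several, 9160 none, and 64 were controls and left out. From log2(signal + 16), the 95th percentile of 150 background probe sets of the same array was subtracted, and limma 3.58.1 (R 4.3.3) tested whether the mean over arrays exceeded 0, with an intercept model and eBayes with trend. A gene was called if any of its single-symbol probe sets passed, and its brightest probe set gives the values. The test was tested on simulated data first.

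The members, lists and tests were chosen with earlier results of these data known. All members could be named, and from each pathway list up to 4 genes above background with the largest moderated statistic and the 2 with the smallest, from each marker list up to 3 and 2. A search for genes with a like pattern was set for members above background whose pools differ by at least 2-fold, of which there were 0. Of 177 list genes, 160 had a single-symbol probe set, and all 160 matched RefSeq by Entrez identifier. No genome build is named for the probe sets, so coordinates are given only for RefSeq promoters. Tables and plots were made in Python 3.11.15 (pandas 2.3.3, matplotlib 3.10.9).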

Additional observations from a re-analysis of the deposited data

How the results depend on the processing

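Of the 12 alternatives, the choice of background level moved the members most. With the median of the background probe sets, 5 of 8 members, 4 of 5 kinin and 5 of 9 aldosterone genes passed in place of 2, 1 and 3. Of all named genes, 76.3% passed under that setting. The log2 differences turned positive there for Ace (1.51), Agtr2 (1.69) and Agtr1b (0.30, adjusted p = 0.28, limma). With the 99th percentile the difference of Agtr1a was -0.68. Over the fits without 1 replicate, that of Agtr2 lay between -0.72 and 0.043. With a gene judged by its median probe set, 32 of 83 pathway genes passed in place of 54, with 39% of all named genes. Among the lists, 4 of 14 peptidase and receptor genes, 8 of 15 partners and transducers, 6 of 18 renin regulators and 0 of 5 kinin genes passed. Without probe sets ending in _s_at or _x_at, 0 of 5 kinin genes passed, and in neither of these settings did any at an unadjusted p under 0.05 (limma). The number of members above background was 2 under the other 11 alternatives, which were pseudocounts of 1 and 64, no trend, quantile normalization, leaving out the dimmest 20% of probe sets, the 99th percentile, both probe set rules and leaving out each replicate. No paired analysis was possible because the series has a single group. Depth has no counterpart here, and the array signal over background limits what can be called. No count was made within batches, because the sources used here give no scan or slide.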

Other observations

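Genes of the neighbouring kinin and aldosterone systems were above background less often than the 54.4% of all named genes. Most measured genes of the aldosterone list have a single probe set, and 37.1% of all named genes with a single probe set passed. In the aldosterone list, 3 of 9 measured genes passed in limma: Hsd11b2, which inactivates glucocorticoids and so protects the mineralocorticoid receptor, at 7579 ± 2270.0, the kinase gene Sgk1 at 2127 ± 580, and the glucocorticoid receptor gene Nr3c1 at 1026 ± 380.5 (SD, n = 3 each). Hsd11b2 read 9868, 5328 and 7540 in pools 1, 2 and 3, with every pool far above the background level. The sodium channel subunit genes Scnn1b (38.4 ± 22.9) and Scnn1g (41.3 ± 36.2) did not pass. The mineralocorticoid receptor gene Nr3c2, named after its values were seen, read 168, 16.01 and 190.2 in pools 1, 2 and 3 and did not pass either.

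In the kinin list, 1 of 5 measured genes passed, against 54.4% of all named genes. It was Klk1, a tissue kallikrein gene, at 1521 ± 53.4 (n = 3), on 1 of its 4 probe sets, and that probe set can match several transcripts of a family of near-identical genes. The kinin receptor gene Bdkrb1 (81.2 ± 33.8) and the plasma kallikrein gene Klkb1 (19.2 ± 13.5) did not pass.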
